A study of Mus musculus with 16 samples.

Results

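The Cyp2a, Cyp2d and Cyp2u1 genes of the mouse encode cytochrome P450 monooxygenases. Matching by symbol found 10 of them among the 15544 genes of the liver table: Cyp2a4, Cyp2a5, Cyp2a12, Cyp2a22, Cyp2d9, Cyp2d10, Cyp2d22, Cyp2d26, Cyp2d40 and Cyp2u1. All 10 passed the filter on low values, which kept 12704 genes. The series measured liver RNA of 27-week-old female mice in 16 libraries, 4 for each of 4 groups. Controls (Esr1fl/fl) carried the floxed Esr1 allele without Cre. Mutants (Esr1Nkx2.1-cre) carried the same floxed allele with a Cre driven by Nkx2.1, a gene of the developing hypothalamus, thyroid and lung, so that oestrogen receptor alpha was lost from hypothalamic neurons. Both genotypes were on a mixed CD-1;129P2 background and were fed standard chow or a high-fat diet (HFD) for 17 weeks. The liver was not the target of the deletion, so Esr1 in these libraries checks no label.

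Liver P450 enzymes are haem proteins of the endoplasmic reticulum. They insert oxygen into lipophilic substrates with electrons handed to them by cytochrome P450 reductase (Por) and cytochrome b5. Several mouse Cyp2a and Cyp2d genes differ in level between male and female liver, a difference set largely by the pattern of growth hormone secretion. Cyp2a4 hydroxylates testosterone and is more abundant in females, whereas Cyp2d9 hydroxylates testosterone at another carbon and is more abundant in males. Cyp2a5 is the coumarin hydroxylase, Cyp2a12 rehydroxylates bile acids, Cyp2d22 is often named as the nearest counterpart of human CYP2D6, and Cyp2u1 hydroxylates long-chain fatty acids.

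The 4 Cyp2a members lie on chromosome 7 of GRCm38, with Cyp2a4 at chr7:26307169-26315088 and Cyp2a5 at chr7:26835305-26843548, both on the plus strand. The 5 Cyp2d members lie on chromosome 15, with Cyp2d9 at chr15:82433437-82456845 on the plus strand and Cyp2d40 at chr15:82759833-82764183 on the minus strand. Cyp2u1 lies at chr3:131288441-131303227 on the minus strand. All 10 are annotated as protein coding.

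Cyp2a4 and Cyp2a5 are close copies, which bears on how reads are divided between them. Their transcripts were 98.3% identical over 1738 aligned bases, with 30 mismatches. Of the 31-base words in Cyp2a4 transcripts, 58.9% also occurred in another gene, most often Cyp2a5, and for Cyp2a5 the share was 54.6%. Their upstream sequences are printed because both genes lie in 1 cluster and their differences between genotypes were unlike, as given below. RefSeq places the windows, which stop before any annotated exon, at chr7:26306942-26307168 for Cyp2a4 and chr7:26835089-26835304 for Cyp2a5 (GRCm38.p6, plus strand, 5′ to 3′). They were 98.1% identical over 216 aligned bases, and capitals mark the 4 aligned bases at which they differ.
Cyp2a4: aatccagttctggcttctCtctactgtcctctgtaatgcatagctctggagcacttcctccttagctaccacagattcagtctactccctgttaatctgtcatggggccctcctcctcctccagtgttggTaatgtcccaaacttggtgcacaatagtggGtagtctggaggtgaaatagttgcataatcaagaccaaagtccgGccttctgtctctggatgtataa
Cyp2a5: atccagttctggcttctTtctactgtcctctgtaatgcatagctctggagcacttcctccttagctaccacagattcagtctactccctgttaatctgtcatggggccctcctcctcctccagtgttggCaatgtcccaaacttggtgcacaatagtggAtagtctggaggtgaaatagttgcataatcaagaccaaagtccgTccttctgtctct

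Cyp2d9, Cyp2d10 and Cyp2d40 are also related, and their upstream windows are printed because Cyp2d9 and Cyp2d40 differed between genotypes in opposite directions. RefSeq places them at chr15:82452127-82452333 on the plus strand, chr15:82407196-82407444 on the minus strand and chr15:82764184-82764372 on the minus strand (GRCm38.p6). The Cyp2d9 window overlaps no annotated exon but lies inside the annotated span of the gene, of which an annotated transcript starts further upstream. Capitals mark the longest stretch that all 3 windows share, which has 14 bases and ends where the Cyp2d9 window ends. It occurs in 3 of the 32851 RefSeq promoter windows (0.00913%, either strand). These are the windows of the 3 genes it was chosen from, so the count says nothing more about them.
Cyp2d9: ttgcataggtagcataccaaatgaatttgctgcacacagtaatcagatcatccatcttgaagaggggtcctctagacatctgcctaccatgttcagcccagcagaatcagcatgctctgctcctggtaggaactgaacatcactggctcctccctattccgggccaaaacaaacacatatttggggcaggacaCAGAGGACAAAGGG
Cyp2d10: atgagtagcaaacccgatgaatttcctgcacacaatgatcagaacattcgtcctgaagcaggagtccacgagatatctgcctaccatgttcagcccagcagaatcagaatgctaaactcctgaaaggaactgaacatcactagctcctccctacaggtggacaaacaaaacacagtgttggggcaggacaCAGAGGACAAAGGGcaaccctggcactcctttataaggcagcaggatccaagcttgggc
Cyp2d40: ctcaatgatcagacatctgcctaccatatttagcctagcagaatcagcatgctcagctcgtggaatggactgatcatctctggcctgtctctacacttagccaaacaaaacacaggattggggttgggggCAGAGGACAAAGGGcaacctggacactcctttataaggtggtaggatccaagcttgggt

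RefSeq gave a promoter window, from 250 bases before to 50 bases after the start, for 8 of the 10 members. TATAAA, searched on both strands, was found in all 8, against 13.6% of all promoter windows of that length. It was on the strand of the gene in the Cyp2a members and on the opposite strand in the Cyp2d members. Its first base was at -91 from the start in Cyp2d40 and between -39 and -28 in the others. Members of a family are related copies, so the 8 windows are not independent of each other. TTCNNNGAA (8.30% of all windows), TTANGTAA (2.32%) and CAAAGTCCA (0.475%) were found in 0 of the 8, which says only that these letters are not in these windows.

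Levels are given in the deposited unit, transcript abundance per length and per library total after a size-factor adjustment (TPM below), so that levels of different genes compare per length. Averaged over 16 libraries, the order of levels was Cyp2d26 (1121 TPM), Cyp2a4 (637), Cyp2d10 (619), Cyp2a5 (602), Cyp2a12 (532), Cyp2d22 (154), Cyp2d40 (149.5), Cyp2a22 (119), Cyp2d9 (30.96) and Cyp2u1 (2.30). Only Cyp2a12 and Cyp2d22, of these neighbours, had ranges that did not overlap. Cyp2a4 was above Cyp2d10 in 8 of 16 libraries, so their order does not hold beyond the spread, and Cyp2a22 was above Cyp2d9 in 16 of 16. The members differed widely in their spread within a group. The within-group SD of log2(TPM + 1) was 1.11 for Cyp2d9, 0.939 for Cyp2a4, 0.928 for Cyp2a22 and 0.617 for Cyp2a5, against 0.260 for the median gene. Cyp2a12, at 0.180, and Cyp2d26, at 0.181, were the steadiest members.

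The libraries were liver by their markers, with 7 hepatocyte markers summing to between 58068 and 100053 TPM. Column totals ran from 905897 to 1119703 TPM, and read depth is unknown on this scale. In whole liver, fewer cells of a type and less RNA per cell cannot be told apart. Mutant library 2 on chow had the lowest value of all 16 libraries for 8 of the 10 members, and it also held the highest summed acute-phase level, 149794 TPM over 19 genes. Whether that bore on its P450 values was not tested. Mutant library 1 on HFD lay inside the range of the 4 HFD controls for 9 of the 10 members, against 0 to 2 for the other 3 HFD mutants. Its Rps7 level, 206 TPM, lay with the 8 mutant libraries (143 to 209.9) and apart from the 8 controls (15.5 to 34.3). That split was read from these same libraries and its reason was not tested, so it is no independent check of the label of mutant library 1. The library titles fall into number series, and on HFD the lower-numbered series held 3 controls and this mutant, while the higher-numbered series held 1 control and 3 mutants.

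**Figure D1:**
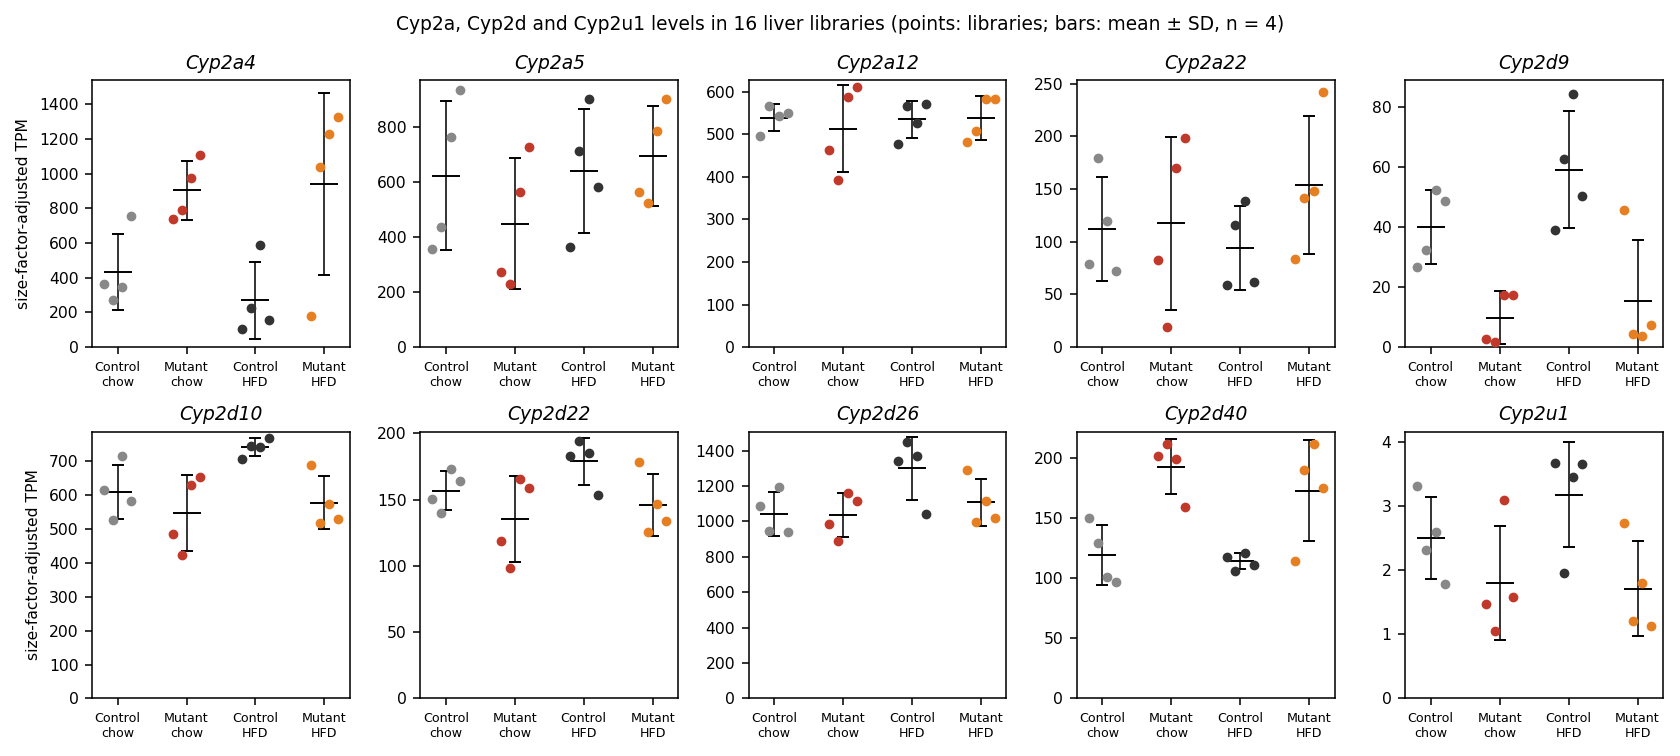
Level of the 10 members in each library (points; TPM, linear axis from 0) in 4 groups, with the mean and SD of 4 libraries (bars, ending at the axis where they would pass below 0). The 4 chow mutants stand at 1.79 to 17.4 TPM for Cyp2d9, below the 4 chow controls, and 1 HFD mutant, at 45.6 TPM, lies apart from the other 3.

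Whether loss of the hypothalamic receptor was reflected in these P450s on chow was examined first. Cyp2d9 was lower and Cyp2d40 higher in every mutant library than in every control library. Cyp2a4 had a mean of 903 ± 171 TPM in mutants and 434 ± 219 TPM in controls (SD, n = 4 each), with overlap in 1 control. No member passed adjusted p = 0.05 in limma, so 0 of 10 members were called, where the call rate over all genes was 0.0236%. At an unadjusted p under 0.05, 2 of 10 members passed, where 6.08% of all genes did, and 2 of 10 had groups that did not overlap, where 3.05% of all genes did.

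Cyp2d9, the testosterone hydroxylase of male liver, was at 26.8, 32.3, 52.1 and 48.4 TPM in the chow controls. In the chow mutants it was at 2.70, 1.79, 17.4 and 17.3 TPM. The highest mutant thus lay below the lowest control, and the mutants fell into a low and a higher pair. The low pair, mutant libraries 1 and 2, also had the highest neutrophil-marker sums of the chow mutants, 2644 and 5715 TPM against 23.2 and 93.1 TPM in libraries 3 and 4. Their acute-phase sums were 39670 and 149794 TPM against 21340 and 21071 TPM. In HFD mutants 1 to 4 Cyp2d9 was at 45.6, 4.21, 3.60 and 7.22 TPM. Their neutrophil-marker sums were 11.9, 57.2, 46.3 and 132 TPM, and their acute-phase sums 23303 to 26484 TPM. The part of either list in the Cyp2d9 values was not tested. On chow the difference was -2.36 on the log2(TPM + 1) scale (SE 0.697, limma adjusted p = 0.629). The two-sided exact permutation p was 0.0286, the smallest that 4 against 4 libraries allow. Within the title series of chow libraries, 1 mutant at 2.70 stood against controls at 26.8 and 32.3, and mutants at 1.79 to 17.4 against controls at 48.4 and 52.1. About 34.8% of the 31-base words of Cyp2d9 occurred in other genes, 988 words spread over 19 genes. Most often this was Cyp2d12, with 402 of the words, which averaged 0.892 TPM in chow controls and 1.22 in chow mutants. Transcripts of Cyp2d9 and the far more abundant Cyp2d10 were 91.8% identical over 1642 aligned bases. Cyp2d10 averaged 610 TPM in chow controls and 548 in chow mutants, and an exchange of reads was not tested.

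Cyp2d40, another member of the chromosome 15 cluster, ran the other way. Its values were 150.0, 129, 101 and 97.1 TPM in chow controls and 201, 211, 199 and 159 TPM in chow mutants. Every mutant was above every control. The difference was 0.70 (SE 0.179, limma adjusted p = 0.512, exact permutation p = 0.0286, two-sided). The ratio of Cyp2d40 to Cyp2d9 was between 1.93 and 5.61 in the controls and between 9.20 and 118 in the mutants. As each gene alone separated the groups, in opposite directions, the ratio had to separate them as well and adds no result of its own. About 27.6% of the 31-base words of Cyp2d40 occurred in other genes, spread over 21 genes. Most often this was the pseudogene Cyp2d41-ps, which averaged 12.9 TPM in chow controls and 10.9 in chow mutants.

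Cyp2a4 was at 363, 272, 345 and 758 TPM in chow controls and at 736, 790.3, 977 and 1109 TPM in chow mutants. Control library 4 alone reached the mutant range. The difference was 1.15 (SE 0.592, 95% interval -0.11 to 2.41, limma adjusted p = 0.838, exact permutation p = 0.0571, two-sided). Cyp2a5 did not show the same genotype difference as its near copy. It was at 358, 438, 763 and 935 TPM in controls and at 273, 228, 565 and 729 TPM in mutants, with broad overlap. Cyp2a4 made up 24.7 ± 6.80% of the summed level of the 4 Cyp2a genes in chow controls and 46.7 ± 6.17% in chow mutants (SD, n = 4), with ranges of 18.7 to 32.7% and 41.9 to 55.2%. Since reads of the pair can be exchanged, their sum was also fitted, and Cyp2a4 plus Cyp2a5 differed by 0.40 (SE 0.397).

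The other 7 members on chow had differences from -0.53 (Cyp2a5) to -0.01 (Cyp2d26), with limma adjusted p of 0.905 or more. Over the 10 members the median difference was -0.20, against 0.02 over all genes tested. Cyp2a12 was nearly level, at 539.8 ± 30.7 TPM in controls and 513 ± 103 TPM in mutants (SD, n = 4). In these members mutant library 2 on chow was low throughout: Cyp2a22 was at 18.8 TPM there, against 82.5 to 198 TPM in the other chow mutants, and Cyp2d22 was at 98.2 TPM against 118 to 166. Leaving that library out gave differences of -1.88 for Cyp2d9, 0.66 for Cyp2d40 and 1.21 for Cyp2a4, each with limma adjusted p = 1.

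**Figure D2:**
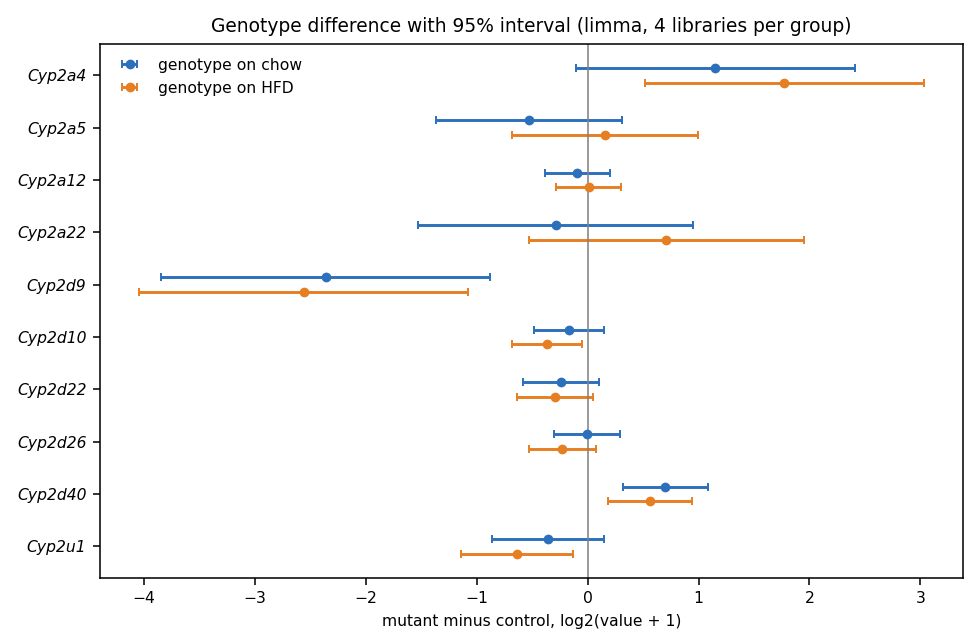
Mutant minus control difference on the log2(TPM + 1) scale (points) with its 95% interval (bars) from limma for each member on chow and on HFD, 4 libraries a group. Cyp2d9 lies at -2.36 on chow and -2.56 on HFD and Cyp2d40 at 0.70 and 0.56, whereas Cyp2a12 lies at -0.09 and 0.01.

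The same comparison on HFD gave the same signs for the members singled out on chow, with 1 mutant library apart. Cyp2a4 and Cyp2d40 were higher, and Cyp2d9, Cyp2d10 and Cyp2u1 lower, at an unadjusted p under 0.05. These were 5 of 10 members, where 8.60% of all genes passed. By adjusted p, limma called 0 of 10, where the call rate over all genes was 0.0157%. Only Cyp2d10 had groups that did not overlap, 1 of 10 members, where 2.69% of all genes did so.

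Cyp2a4 was at 104, 224, 589.6 and 157 TPM in HFD controls. In HFD mutants it was at 176, 1036, 1229 and 1329 TPM, so that 3 mutants lay above every control and mutant library 1 among them. The difference was 1.77 (SE 0.592, limma adjusted p = 0.527, exact permutation p = 0.0857, two-sided). Cyp2a5 was at 366, 713, 903 and 581 TPM in controls and at 564, 524, 787 and 905 TPM in mutants, which overlapped throughout. The summed pair differed by 0.86 (SE 0.397). Cyp2a4 made up 15.7 ± 7.87% of the Cyp2a sum in HFD controls and 37.1 ± 15.8% in HFD mutants (SD, n = 4), where the lowest mutant was at 13.5%.

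**Figure D3:**
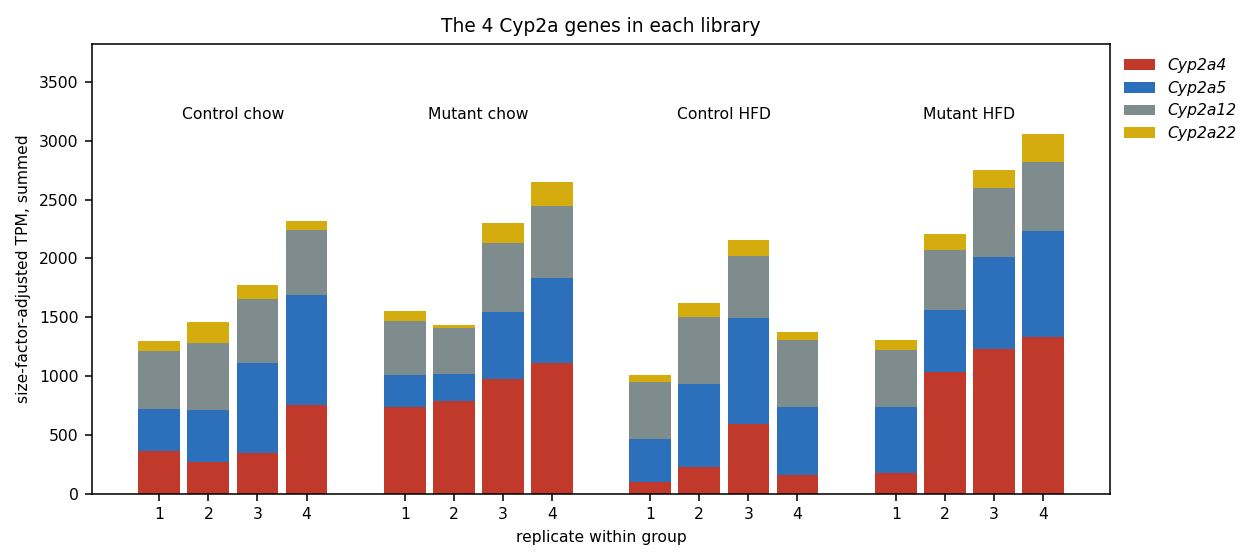
Summed level (TPM, linear axis from 0) of the 4 Cyp2a genes in each of the 16 libraries, divided by gene (colours). The Cyp2a4 part is 41.9 to 55.2% of the bar in the 4 chow mutants and 18.7 to 32.7% in the 4 chow controls, while mutant library 1 on HFD, at 13.5%, resembles the HFD controls.

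Cyp2d9 was at 39.0, 62.4, 84.3 and 50.2 TPM in HFD controls and at 45.6, 4.21, 3.60 and 7.22 TPM in HFD mutants. The 3 low mutants lay below every control, and mutant library 1 lay within the controls. The difference was -2.56 (SE 0.697, limma adjusted p = 0.524, exact permutation p = 0.0571, two-sided). Cyp2d40 was at 117, 106, 121 and 111 TPM in HFD controls, a narrow range, and at 114, 189.8, 212 and 175 TPM in HFD mutants. It showed the same division, with a difference of 0.56 (SE 0.179, limma adjusted p = 0.527, exact permutation p = 0.0857, two-sided). The ratio of Cyp2d40 to Cyp2d9 was 1.43 to 3.01 in the controls and 2.51 to 58.7 in the mutants.

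Cyp2d10 was at 707, 746, 742 and 770.0 TPM in HFD controls and at 689, 517, 574 and 529.7 TPM in HFD mutants. Every mutant was below every control, mutant library 1 by the least. The difference was -0.37 (SE 0.149, limma adjusted p = 0.56, exact permutation p = 0.0286, two-sided). Cyp2d10 shares 50.2% of its 31-base words with other genes, most often Cyp2d11. Cyp2u1, the least abundant member, was at 3.67, 1.95, 3.45 and 3.65 TPM in HFD controls and at 2.73, 1.20, 1.79 and 1.13 TPM in HFD mutants. Its control library 2 fell among the mutants, and the difference was -0.64 (SE 0.237, limma adjusted p = 0.548, exact permutation p = 0.0571, two-sided). About 14.5% of the 31-base words of Cyp2u1 occurred in other genes, spread over 4831 genes. The other 5 members had differences from -0.30 (Cyp2d22) to 0.71 (Cyp2a22), with limma adjusted p of 0.59 or more, and the median over the 10 members was -0.11, against 0.02 over all genes.

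The remaining members overlapped between the genotypes on both diets. Cyp2d22 was at 150.2, 140.2, 173 and 164 TPM in chow controls, 118, 98.2, 166 and 159 in chow mutants, 183, 194, 185 and 154 in HFD controls and 179, 126, 146 and 134 in HFD mutants. Cyp2d26 was at 985, 889, 1162 and 1115 TPM in chow mutants and at 1293, 998, 1116 and 1020 TPM in HFD mutants. Mutant libraries 1 and 3 on HFD lay inside the range of the HFD controls, 1041 to 1448 TPM. Cyp2a12 stayed between 394 and 610.4 TPM in all 16 libraries. Its near copy Cyp2a22, with which it shared 1191 of its 3454 words of 31 bases, ranged from 18.8 to 242 TPM, and the pair were 95.8% identical over 3442 aligned transcript bases. Cyp2a22 was at 78.5, 179, 119 and 72.0 TPM in chow controls and at 59.2, 116, 139 and 61.5 TPM in HFD controls. Cyp2u1 was at 3.32, 2.32, 2.60 and 1.79 TPM in chow controls and at 1.48, 1.05, 3.09 and 1.57 TPM in chow mutants, where mutant library 3 lay among the controls.

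The HFD comparison depended on which libraries entered it. Without mutant library 1, limma called 3 of 10 members, where 1.11% of all genes were called: Cyp2a4 at 2.46 (adjusted p = 0.017), Cyp2d9 at -3.31 (adjusted p = 0.0125) and Cyp2d40 at 0.75 (adjusted p = 0.0276). Mutant library 1 lay inside the control range for 9 of these same 10 members. The calls without it are therefore not independent of the values that set it apart. With library weights estimated from the data, limma called 7 of 10 members, where 30.9% of all genes were called. The weight was 0.329 for that library and 0.228 for HFD control library 4. The members called were the same 3 with Cyp2d10, Cyp2d22, Cyp2d26 and Cyp2u1. With the title series as a term in the fit, limma called 0 of 10, and the share over all genes is not given here. The differences were then 1.24 for Cyp2a4, -1.75 for Cyp2d9 and 0.39 for Cyp2d40 (adjusted p = 1 each).

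Within the higher-numbered series the single control was at 157 TPM for Cyp2a4, against 1036 to 1329 TPM in its 3 mutants, and at 50.2 TPM for Cyp2d9, against 3.60 to 7.22 TPM. Within the lower-numbered series the single mutant was inside the range of its 3 controls for both genes. A series with 1 library of a genotype allows no test within it, and what the title numbers stand for was not stated in the labels.

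**Figure D4:**
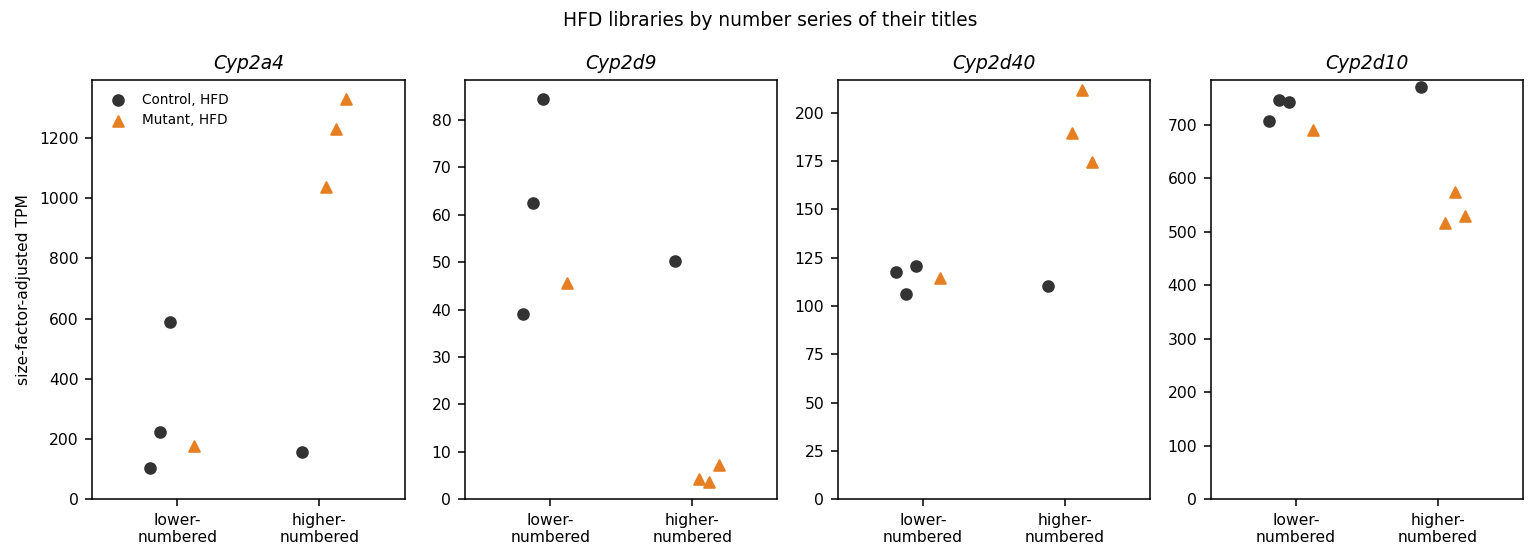
Level (TPM, linear axis from 0) of 4 members in the 8 HFD libraries, by the number series of the library titles (horizontal axis) and by genotype (circles, controls; triangles, mutants). The 3 mutants of the higher-numbered series stand apart from every control for all 4 genes, and the mutant of the lower-numbered series is at 176 TPM for Cyp2a4 and 45.6 TPM for Cyp2d9, inside the controls.

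Diet was compared within each genotype. Chow and HFD libraries came from different title series, so diet and title series cannot be told apart. In controls, Cyp2d26, the most abundant member, was at 1088, 944, 1192 and 941 TPM on chow and at 1339, 1448, 1368 and 1041 TPM on HFD. Control library 4 on HFD lay among the chow libraries. The difference was 0.32 (SE 0.142, limma adjusted p = 0.366, exact permutation p = 0.0857, two-sided). Cyp2d10 differed by 0.29 (limma adjusted p = 0.425) and Cyp2a4 by -0.89 (limma adjusted p = 0.533), and the other 7 members by -0.26 to 0.55. Cyp2a4 plus Cyp2a5 differed by -0.25 (SE 0.397). By adjusted p limma called 0 of 10 members, where 0.00% of all genes were called, and at an unadjusted p under 0.05 1 of 10 passed, where 12.9% of all genes did. With library weights Cyp2d26 was called (0.40, limma adjusted p = 0.0219), 1 of 10 members, where 17.8% of all genes were called.

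In mutants, HFD minus chow was 0.76 for Cyp2a5 (limma adjusted p = 0.747; 0.21 for its sum with Cyp2a4), 0.74 for Cyp2a22 (limma adjusted p = 0.867) and -0.18 for Cyp2d40 (limma adjusted p = 0.902). Cyp2a22 was at 82.5, 18.8, 170.0 and 198 TPM in chow mutants and at 84.0, 142, 148 and 242 TPM in HFD mutants, and the ranges overlapped. Without the chow mutant at 18.8 TPM its difference was 0.03 (limma adjusted p = 1). By adjusted p limma called 0 of 10 members, where 0.00% of all genes were called, and 0 of 10 passed an unadjusted p under 0.05, where 6.86% did.

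The genotype difference was then compared between the diets. The interaction was 0.69 for Cyp2a5, 1.00 for Cyp2a22 and -0.22 for Cyp2d26 (limma adjusted p = 0.895 each). Without mutant library 2 on chow it was 0.29 for Cyp2a22 and 0.42 for Cyp2a5. For Cyp2a4 it was 0.62 with a 95% interval of -1.16 to 2.40, for Cyp2d9 -0.20 with an interval of -2.29 to 1.90 and for Cyp2d40 -0.14 with an interval of -0.68 to 0.40. Each interval includes differences in either direction. Limma called 0 of 10 members, where 0.00% of all genes were called, and 0 of 10 passed an unadjusted p under 0.05, where 4.21% did.

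Genes whose pattern over the 16 libraries was most like that of a member are given as a description, since all points share the same libraries and groups. By Spearman coefficient, Cyp2a4 was nearest to Cyp3a16 (0.912), Tmem97 (0.906) and Dcaf12l1 (0.891). Cyp2a5 was nearest to Pdxk, which makes pyridoxal phosphate (0.924), Pdk2, a kinase of pyruvate dehydrogenase (0.879), and Gys2, the liver glycogen synthase (0.876). Cyp2d9 was nearest to Ipmk (0.924), the glucuronosyltransferase Ugt1a9 (0.918) and Cyp2b13 (0.912).

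Other P450 genes of the chromosome 7 and 15 clusters were listed, and 13 of 18 were in the table and 10 were tested. On chow, 0 were higher and 2 lower in mutants at an unadjusted p under 0.05, where 6.08% of all genes passed. By adjusted p limma called 0. Cyp2b13 lies in the same cluster as Cyp2a4 and is also among the 20 female-biased genes counted below. It was at 349, 502, 413 and 295 TPM in chow controls and at 14.3, 5.04, 223 and 179.6 TPM in chow mutants. Its difference was -3.12 (limma adjusted p = 0.599). On HFD it was at 419 to 522 TPM in controls and at 514, 92.1, 119 and 120.4 TPM in mutants, where mutant library 1 again stood with the controls. Cyp2f2 (-1.38, limma adjusted p = 0.542) and Cyp2g1 (1.43, limma adjusted p = 0.558) passed the unadjusted threshold on HFD, where 8.60% of all genes did. The pseudogene Cyp2d37-ps averaged 350.1 TPM in chow controls, above Cyp2d22 and Cyp2d40, although reads of close copies may be divided among them.

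Of the partners of P450 enzymes, the 5 electron donors gave 0 genes past an unadjusted p of 0.05 in either genotype comparison, with a summed level of 2557 to 3522 TPM. Of 11 genes of haem synthesis and breakdown, 1 was higher on chow at that threshold (Blvra, biliverdin reductase, 0.23, limma adjusted p = 0.804) and 0 passed on HFD. Of 28 regulators of liver P450s, 0 were higher and 1 was lower on chow, Foxa1, a forkhead factor, at -0.56 (limma adjusted p = 0.548). On HFD 5 were higher and 2 lower, among them Ahr, the aryl hydrocarbon receptor, at 0.99 (limma adjusted p = 0.524) and Prlr, the prolactin receptor, at 1.09 (limma adjusted p = 0.527). Over all genes, 6.08% passed the unadjusted threshold on chow and 8.60% on HFD. By adjusted p limma called 0 genes of each of these lists in every comparison.

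Genes known for a female or male bias in liver, none of them a member, were counted in the same comparisons. The lists counted here were chosen with earlier results of these data known, so their counts only describe these libraries. Over all genes, 6.08% passed an unadjusted p under 0.05 for genotype on chow and 8.60% for genotype on HFD. Of 20 female-biased genes, 11 were higher and 0 lower at an unadjusted p under 0.05 on HFD (median 0.92), and 2 were higher and 1 lower on chow (median 0.29). The 1 lower on chow was Cyp2b13, at -3.12. Of 14 male-biased genes tested, 1 was higher and 0 lower on HFD, and 1 was higher and 1 lower on chow. Of 11 pericentral markers, 6 were higher on HFD (median 0.52) and 0 on chow (median 0.03). Of 11 periportal markers, 1 was lower on HFD (median -0.32) and 1 was higher on chow (median -0.08). Of 19 acute-phase genes, 10 were higher on chow (median 1.22) and 1 was lower on HFD (median -0.21), and their sum on chow was 21071 to 149794 TPM in mutants against 16803 to 20633 TPM in controls. All 4 neutrophil markers tested were higher on chow (median 5.30) and 0 on HFD (median 1.41), with sums on chow of 23.2 to 5715 TPM in mutants and 1.87 to 8.80 TPM in controls. Of the Kupffer cell, endothelial, stellate, bile duct, lymphocyte and red blood cell markers, only Clec4f of Kupffer cells passed an unadjusted p of 0.05 in a genotype comparison (0.74 on chow, limma adjusted p = 0.804), with list medians from -0.08 to 0.62. With diet in controls, 8 of 20 female-biased genes were lower and 1 higher on HFD (median -0.69). In mutants, 8 of 19 acute-phase genes (median -0.997) and 4 of 4 neutrophil markers (median -3.14) were lower on HFD. Also in mutants, 5 of 11 pericentral markers (median 0.41) were higher. At the unadjusted threshold 12.9% of all genes passed with diet in controls and 6.86% in mutants. Acute-phase sums were 39670, 149794, 21340 and 21071 TPM in chow mutants 1 to 4 and 23303 to 26484 TPM in HFD mutants. Neutrophil sums were 2644, 5715, 23.2 and 93.1 TPM against 11.9 to 132 TPM. Only chow mutants 1 and 2 thus lay above the HFD mutants. By adjusted p limma called 0 genes of these lists, and the part of the lists in the P450 values was not tested.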

How the data were processed

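The authors sequenced liver RNA of 16 libraries (NEBNext Ultra II, Illumina) and quantified reads against the mouse transcriptome (mm10) with kallisto in gene mode, testing genes with sleuth. Tool versions are not given in the sources used here. The deposited table holds 1 signal value per gene and library, on the TPM scale after a size-factor adjustment, as judged from the values. The filter on low values asked for 1 TPM in 4 libraries. Then log2(value + 1) was fitted with limma 3.58.1 (R 4.3.3, mean-variance trend, 4 group means over 16 libraries), and p-values were adjusted by Benjamini-Hochberg over 12704 genes. Fold changes on this scale understate changes of low genes. Exact permutation tests compared 4 with 4 libraries. In each comparison the members with an unadjusted p under 0.05 are named with their statistics or, where fewer than 3 had one, the 3 with the smallest p. For other lists at most 2 genes a comparison are named, by smallest p. The members and lists were chosen with earlier results of these data known. The labels do not say that libraries came from separate mice, and p-values measure only the spread between libraries. Sequences are from RefSeq (GRCm38.p6) and positions from GENCODE M21 (GRCm38), with alignments by Biopython 1.88. Alternatives covered scaling, filter, pseudocount, samples, variance model, weights, title series and each library left out.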

Additional observations from a re-analysis of the deposited data

Results flagged for a closer look

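Among 40 groups of 4 libraries (10 members in 4 groups), 2 held a library whose gap to the nearest other, divided by the range of the group, passed Dixon's critical value. Chance alone gives about 1 such group in 20. Cyp2d9 in HFD mutants gave 0.914, with mutant library 1 at 45.6 TPM and the other 3 at 3.60 to 7.22 TPM. Cyp2u1 in HFD controls gave 0.872, with control library 2 at 1.95 TPM and the other 3 at 3.45 to 3.67 TPM. No difference between diets in the genotype effect of a member passed its test.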

How the results depend on the processing

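The number of members called by limma was 0 in all 5 comparisons and changed under few alternatives. For genotype on HFD it was 7 with library weights, 0 to 3 when each library was left out in turn (3 without mutant library 1) and 3 when mutant library 2 on chow and mutant library 1 on HFD were both left out, an alternative added after seeing the data. For diet in controls it was 1 with library weights. Over all genes, library weights called 30.9% for genotype on HFD and 17.8% for diet in controls. Leaving out mutant library 1 called 1.11% for genotype on HFD, and shares for the other alternatives are not given here. Of the recomputed differences of single members, 12 passed the threshold newly, 3 reversed and the others kept their direction and side of it. The 3 reversals were for Cyp2d40 with diet in mutants: 0.027 with library weights, 0.047 with both libraries left out, and -0.29 to 0.00073 with each library left out, the cause of which was not tested. All 105 recomputed medians over the members moved by less than 0.395, the within-group SD of the library medians. That yardstick is wider than the main medians, -0.20 to 0.13, so a median can change sign within it. For diet in controls the median was 0.13 in the main fit and -0.045 with every library rescaled to the same total. With Cyp2a4 and Cyp2a5 summed, their genotype difference was 0.40 on chow and 0.86 on HFD, against 1.15 and 1.77 for Cyp2a4 alone. No paired analysis was possible because the labels give no replicate numbers. Read depth is unknown, which leaves the precision of Cyp2u1, near 2 TPM, undetermined.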
